A study of Mus musculus with 4 samples.

Results

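The core NRF2 antioxidant genes were examined in injured mouse kidneys with or without tubular Apela, the gene for the peptide elabela (ELA). These are 10 genes taken by their symbol from the 54078 features of the expression table: the regulators Nfe2l2 and Keap1, and 8 classical targets, Nqo1, Hmox1, Slc7a11, Gclc, Gclm, Txnrd1, Srxn1 and Osgin1. All 10 were found, and 9 had a level high enough to be tested, the exception being Slc7a11. RNA-sequencing was available for 4 kidney libraries at day 3 after both kidneys had been clamped for 30 min and reperfused (bI/R 3D), 2 of WT mice and 2 of Apela Ksp KO mice. The WT mice were littermates with the same floxed Apela alleles but without Cre (Apela flox/flox, Cre negative). In the KO mice, Cre under the Ksp-cadherin promoter removes Apela from renal tubular epithelial cells, so Apela of other kidney cells is left. The mice were adult males, with a strain labelled C57BL/6 x 129S4/SvJae where the study's methods give a C57BL/6 background. Each library was a pool of RNA from 3 mice, so n counts pools, and p-values measure the spread between pools. No uninjured kidney was analysed here, so the comparison is between genotypes after the same injury.

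Apela itself had 5.27 and 4.57 FPKM (fragments per kilobase of gene length, scaled to the size of the library) in WT against 0.536 and 0.245 FPKM in KO pools, from 85, 79, 9 and 4 reads, a log2 fold change of -2.62 (standard error 0.22, limma adjusted p = 0.466). The pools were thus ordered as their labels have it. Cdh16, which encodes Ksp-cadherin, was at 279 and 267 FPKM in WT against 262 and 243 FPKM in KO pools. Although the text with the series names adipose tissue, the 8 proximal tubule markers summed to between 1170 and 2312 FPKM and the 7 adipose markers to between 0.448 and 8.27 FPKM, with the brown fat gene Ucp1 at 0 reads in all 4 pools, where up to 3 reads a library cannot be told from 0. The adipose sums were 1.56 and 0.448 FPKM in WT against 8.27 and 3.19 FPKM in KO pools, so KO was above. Most of each sum was Cidec, at 1.37 and 0.282 FPKM in WT against 7.92 and 2.79 FPKM in KO pools. The reads assigned to genes numbered 16045724 to 16927742 a library.

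NRF2, the product of Nfe2l2, is a transcription factor that is held at a low level in unstressed cells because KEAP1, a sensor with reactive cysteines, presents it to a ubiquitin ligase. When oxidants or electrophiles modify KEAP1, NRF2 accumulates, pairs with small MAF proteins and binds antioxidant response elements (AREs) near genes for glutathione synthesis, thioredoxin reduction, quinone and haem breakdown and NADPH supply. In the kidney the tubular epithelium meets reactive oxygen during reperfusion, and NRF2 targets are known there as part of the defence. Most of NRF2's control is at the level of the protein, so the Nfe2l2 transcript does not report its activity.

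To show the element that gives the group its name, the ARE core TGACNNNGC was searched on both strands in RefSeq promoter windows of GRCm38.p6, which run from 250 bases before to 50 bases after an annotated start. Windows were found for 8 of the 10 genes, 10 windows in all (Txnrd1 has 3), and the entries for Hmox1 and Gclc were missing. The core stood in 4 windows of 4 genes (40.0% of windows), against 4071 of 32851 windows of all genes (12.4%). The 4 matches are given below with 10 bases on each side, 5′ to 3′ on the strand of the gene, with the matched core in capitals. No match overlapped the AP-1 letters TGANTCA, and a match describes letters only, not a bound site.
Nfe2l2 (chr2:75704885-75704913, minus strand, 240 bases before the start, read as written): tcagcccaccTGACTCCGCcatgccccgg
Gclm (chr3:122245413-122245441, plus strand, 134 bases before the start, reverse complement): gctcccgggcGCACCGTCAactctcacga
Txnrd1 (chr10:82859104-82859132, plus strand, 92 bases before the second of its starts, reverse complement): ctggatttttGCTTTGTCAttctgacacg
Srxn1 (chr2:152105542-152105570, plus strand, base 29 after the start, reverse complement): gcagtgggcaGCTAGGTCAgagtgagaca
The windows of Keap1, Nqo1, Slc7a11 and Osgin1 held no match, which says only that these letters are not in this stretch.

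Levels were compared between genes as FPKM, which is scaled by gene length. In WT pools the order of mean levels ran from Gclc at 114 FPKM (114.5 before rounding) through Hmox1 at 67.9, Gclm at 59.4, Srxn1 at 48.3, Nqo1 at 42.0, Txnrd1 at 35.0, Nfe2l2 at 34.4, Osgin1 at 16.9 and Keap1 at 10.6 to Slc7a11 at 0.0881 FPKM. The ranges of the WT pools overlapped between Hmox1 and Gclm, between Srxn1 and Nqo1, between Nqo1 and Txnrd1, and between Txnrd1 and Nfe2l2, so those neighbours were not separated. In KO pools Nqo1 stood in place 2 of the 10 genes with a mean of 147 FPKM, after Gclc at 187 FPKM with an overlap of their pools, whereas it had place 5 in WT. The KO pools also overlapped between Hmox1 and Srxn1, between Srxn1 and Gclm, and between Gclm and Txnrd1. By mean level, Txnrd1, Nfe2l2, Osgin1, Keap1 and Slc7a11 had places 6 to 10 in both genotypes. Txnrd1 was not separated from Nqo1 and Nfe2l2 in WT, nor from Gclm in KO.

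**Figure D1:**
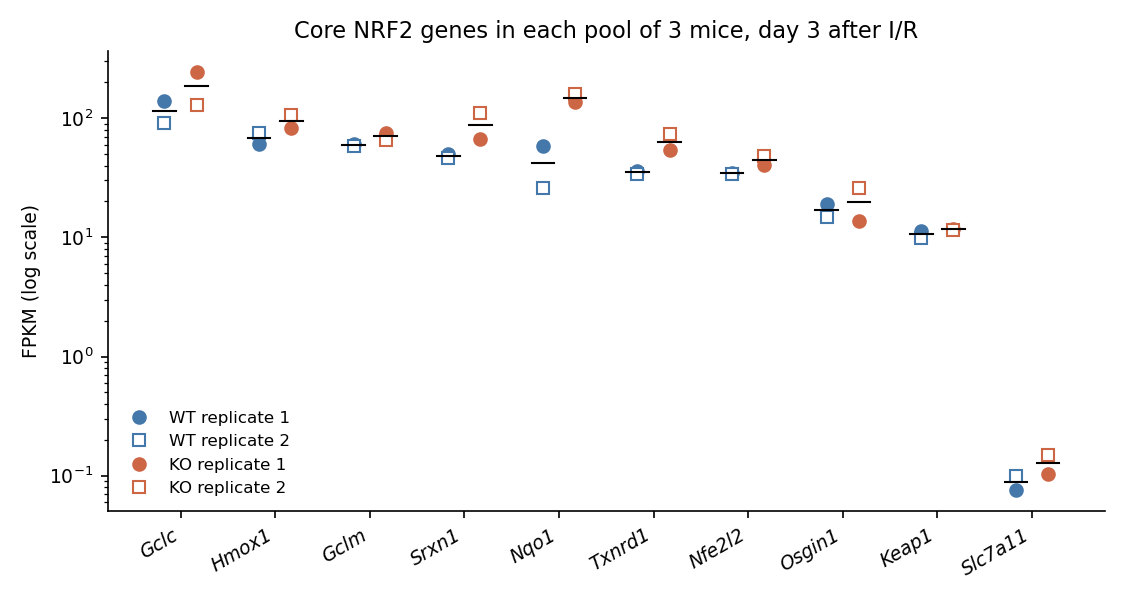
FPKM on a log axis of the 10 core NRF2 genes in each pool, with circles for replicate 1, squares for replicate 2 and a black line at the mean of the 2 pools. The KO pools of Nqo1 lie far above its WT pools, those of Gclc and Osgin1 overlap with WT, and Slc7a11 lies far below the other genes.

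To see which of these genes differed between genotypes, log2(FPKM + 0.5) was compared with limma over all 15414 genes with a mean of at least 0.5 FPKM. All 9 tested core genes had a positive log2 fold change, with a median of 0.46 and a range from 0.13 to 1.90, against a median of 0.0071 over all genes tested. For 7 of the 9 (77.8%) each KO pool exceeded each WT pool, and the same held for 19.7% of all genes tested. The core genes were chosen with earlier results of these data known, so their shares are a description and not a test. For 6 of the 9 the difference was also larger than the gap between the 2 pools of either genotype, against 12.7% of all genes. None of the 9 had an adjusted p-value under 0.05 (limma, Benjamini-Hochberg), nor did any other gene (0%, smallest adjusted p = 0.466), and 3 of the 9 were higher in KO at an unadjusted p under 0.05, namely Nqo1, Txnrd1 and Srxn1, against 3.29% of all genes. In either direction 974 genes had such an unadjusted p, and with voom weights on reads the counts were 0 at the adjusted and 970 at the unadjusted p. With 2 pools against 2 the smallest p-value of an exact two-sided permutation test is 0.333, so each gene is given with all its pools.

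**Figure D2:**
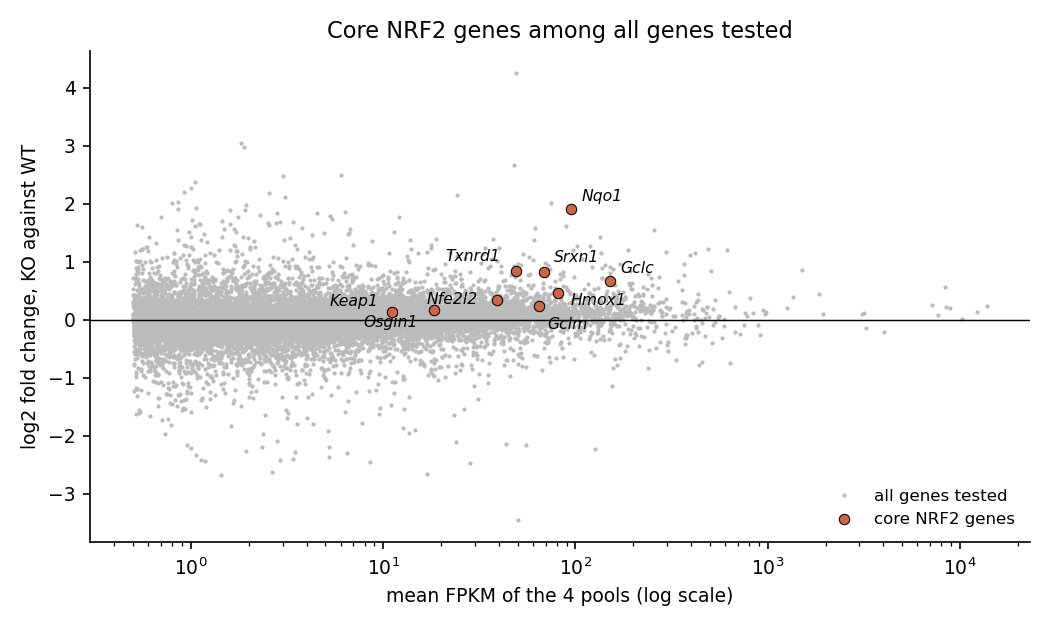
Mean FPKM of the 4 pools on a log axis against the log2 fold change of KO over WT for the 15414 genes tested (grey) and the 9 tested core NRF2 genes (orange). All 9 lie above 0, from Keap1 at 0.13 to Nqo1 at 1.90.

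Of the regulators, Nfe2l2 (ENSMUSG00000015839, minus strand, GRCm38 chr2:75675513-75704641) had 34.8 and 34.0 FPKM in WT against 40.2 and 48.1 FPKM in KO pools. The WT pools nearly coincided and both KO pools were above them. Its mean was 34.4 ± 0.536 (SD, n = 2) for WT against 44.2 ± 5.61 (SD, n = 2) for KO, a log2 fold change of 0.35 (95% interval -0.011 to 0.71, limma adjusted p = 0.785). Without KO replicate 2 it was 0.22.
Keap1 (ENSMUSG00000003308, minus strand, chr9:21229730-21239361) had 11.3 and 9.96 FPKM in WT against 11.8 and 11.5 FPKM in KO pools. The pools did not overlap, but the lower KO pool was only just above the higher WT pool and the gap between the WT pools was larger than the difference of the genotypes. The log2 fold change was 0.13 (95% interval -0.18 to 0.44, limma adjusted p = 0.854). It was 0.042 without WT replicate 2, 0.22 without WT replicate 1 and 0.060 when scaled to the reads on genes. An antisense gene, Gm16754, overlaps Keap1 with at most 25 reads in a library.
The ratio of the Nfe2l2 level to the Keap1 level was 3.08 and 3.42 in WT against 3.42 and 4.18 in KO pools, so WT replicate 2 and KO replicate 1 were alike.

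Nqo1 had the largest difference of the 9 genes. It encodes a quinone reductase that passes a pair of electrons to quinones and is the usual readout of NRF2 (ENSMUSG00000003849, minus strand, chr8:107388225-107403206). It had 57.9 and 26.1 FPKM in WT against 137 and 158 FPKM in KO pools, from 1444, 698, 3548 and 3985 reads. Both KO pools were more than 2 times the higher WT pool, whereas the WT pools were themselves 1.13 log2 units apart. The mean was 42.0 ± 22.4 (SD, n = 2) for WT against 147 ± 15.2 (SD, n = 2) for KO, a ratio of 3.51 and a log2 fold change of 1.90 (standard error 0.40, 95% interval 0.86 to 2.95, limma adjusted p = 0.677). It ranked 19 among the 15414 genes by log2 fold change. Leaving out WT replicate 2 gave 1.34, and leaving out WT replicate 1 gave 2.47.
Hmox1, the inducible haem oxygenase, opens the haem ring to biliverdin, iron and carbon monoxide (ENSMUSG00000005413, plus strand, chr8:75093621-75100589). It had 60.3 and 75.5 FPKM in WT against 81.8 and 106 FPKM in KO pools, so the genotypes did not overlap. The log2 fold change was 0.46 (95% interval -0.065 to 0.99, limma adjusted p = 0.797), larger than the gaps of 0.32 and 0.38 within WT and KO. Without KO replicate 2 it was 0.28, and without WT replicate 1 it was 0.30. Hmox1 is also a gene of macrophages, whose 10 markers summed to 165 and 416 FPKM in WT against 208 and 204 FPKM in KO pools, with 7 of the 9 tested markers overlapping between genotypes, as 62.2% of all genes did. The sum was highest in WT replicate 2, the WT pool with the higher Hmox1, and its part in the Hmox1 values was not tested.

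The genes of glutathione synthesis differed among themselves in the separation of the genotypes. Gclc encodes the catalytic subunit of glutamate-cysteine ligase, the rate-limiting enzyme (ENSMUSG00000032350, plus strand, chr9:77754535-77794485). It had 138 and 90.8 FPKM in WT against 245 and 130 FPKM in KO pools. KO replicate 2 was below WT replicate 1, so the genotypes overlapped. The log2 fold change of 0.67 (95% interval -0.34 to 1.68, limma adjusted p = 0.798) was smaller than the gap of 0.92 between the KO pools. Leaving out KO replicate 1 gave 0.21, KO replicate 2 gave 1.13 and WT replicate 2 gave 0.37.
Gclm, the modifier subunit that raises the efficiency of the enzyme, lies at chr3:122245557-122270732 on the plus strand (ENSMUSG00000028124). Gclm has the core shown above in its promoter window, upstream of the gene. It had 60.6 and 58.3 FPKM in WT against 74.6 and 65.6 FPKM in KO pools, without overlap. The log2 fold change was 0.23 (95% interval -0.11 to 0.58, limma adjusted p = 0.798), against gaps of 0.055 in WT and 0.19 in KO. It was 0.14 without KO replicate 1 and also 0.14 after quantile normalization. The non-coding gene Gm17494 on the other strand overlaps Gclm with at most 47 reads in a library.
The ratio of the catalytic to the modifier transcript was 2.28 and 1.56 in WT and 3.29 and 1.98 in KO pools. The pools overlapped in this ratio, and replicate 1 was the higher in both genotypes.
Slc7a11 encodes the light chain of the cystine/glutamate exchanger, which supplies cysteine for glutathione (ENSMUSG00000027737, minus strand, chr3:49892526-50443614). It had 0.076 and 0.10 FPKM in WT against 0.10 and 0.15 FPKM in KO pools, which was too low to be tested. These values rest on 17, 24, 24 and 34 reads, with exact 95% Poisson intervals of 9.90 to 27.2, 15.4 to 35.7, 15.4 to 35.7 and 23.5 to 47.5 reads, which cover counting error only. Both KO pools were at or above the higher WT pool, but the intervals of neighbouring pools overlapped widely. Its partner, the heavy chain Slc3a2, was at 73.8 and 66.9 FPKM in WT against 68.7 and 73.8 FPKM in KO pools.

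In both thioredoxin system genes the KO pools were above the WT pools (19.7% of all genes). Txnrd1, the cytosolic thioredoxin reductase, uses NADPH to keep thioredoxin reduced (ENSMUSG00000020250, plus strand, chr10:82833951-82897712). It had 36.0 and 34.0 FPKM in WT against 54.0 and 73.1 FPKM in KO pools, from 4100 to 8410 reads. The WT pools were 0.081 log2 units apart and both KO pools lay above them. The mean was 35.0 ± 1.40 (SD, n = 2) for WT against 63.5 ± 13.5 (SD, n = 2) for KO, a ratio of 1.81 and a log2 fold change of 0.83 (standard error 0.18, 95% interval 0.36 to 1.31, limma adjusted p = 0.690). Leaving out single pools gave 0.62 to 1.05. Eid3, a gene inside Txnrd1 on the same strand, had at most 15 reads in a library.
Srxn1, sulfiredoxin, restores peroxiredoxins that have been over-oxidised (ENSMUSG00000032802, plus strand, chr2:152105516-152111376). It had 50.1 and 46.6 FPKM in WT against 66.9 and 109 FPKM in KO pools, again without overlap. The mean was 48.3 ± 2.49 (SD, n = 2) for WT against 88.1 ± 30.0 (SD, n = 2) for KO, a log2 fold change of 0.82 (standard error 0.26, 95% interval 0.13 to 1.51, limma adjusted p = 0.785). KO replicate 2 set much of this size, as it was 0.47 without that pool.
Osgin1, oxidative stress induced growth inhibitor 1, lies at chr8:119434124-119446256 on the plus strand (ENSMUSG00000074063). It had 19.2 and 14.7 FPKM in WT against 13.7 and 26.2 FPKM in KO pools. KO replicate 1 was the lowest and KO replicate 2 the highest of the 4 pools, so the genotypes overlapped. The log2 fold change was 0.17 (95% interval -0.72 to 1.06, limma adjusted p = 0.939). Leaving out KO replicate 2 turned it to -0.28, and leaving out WT replicate 2 to -0.013.

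**Figure D3:**
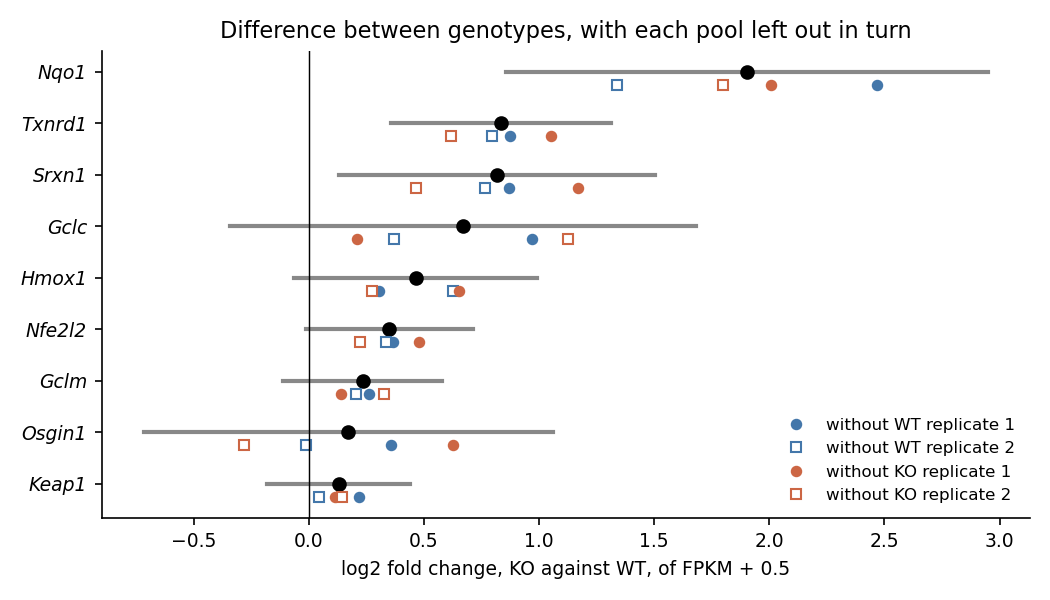
log2 fold change of KO over WT of FPKM + 0.5 for the 9 tested core genes (black points) with limma's 95% interval (grey bars), and the value when 1 pool is left out (coloured points). The intervals of Nqo1, Txnrd1 and Srxn1 lie above 0 before adjustment, those of the other 6 genes include 0, and Osgin1 changes sign with a pool left out.

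The 2 KO pools did not have the same profile. Gclc, Gclm and Keap1 were higher in KO replicate 1, while the other 7 genes were higher in KO replicate 2, among them Srxn1 at 109 against 66.9 FPKM and Osgin1 at 26.2 against 13.7 FPKM. In WT, 8 of the 10 genes were higher in replicate 1, and Hmox1 and Slc7a11 were higher in replicate 2. Over all genes tested, 7810 were higher in WT replicate 1 and 7583 in WT replicate 2, and 7581 in KO replicate 1 and 7808 in KO replicate 2. Averaged over the 8 targets, the log2 level relative to each gene's mean over the pools was -0.20 (replicate 1) and -0.45 (replicate 2) for WT, against 0.22 and 0.43 for KO. On average the targets were therefore higher in either KO pool than in either WT pool. The WT pools were furthest apart in Nqo1, at 1.13 log2 units. WT replicate 2, lower in Nqo1, also stood apart in some marker sums. Fibroblast markers summed to 134 and 270 FPKM in WT against 161 and 181 FPKM in KO pools. Thick limb and distal tubule markers summed to 1376 and 966 against 1388 and 1145 FPKM. Collecting duct markers summed to 350 and 226 against 372 and 300 FPKM. Macrophage markers were also highest there, while proximal tubule markers were lowest in KO replicate 1. The part of these sums in the target values was not tested.

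**Figure D4:**
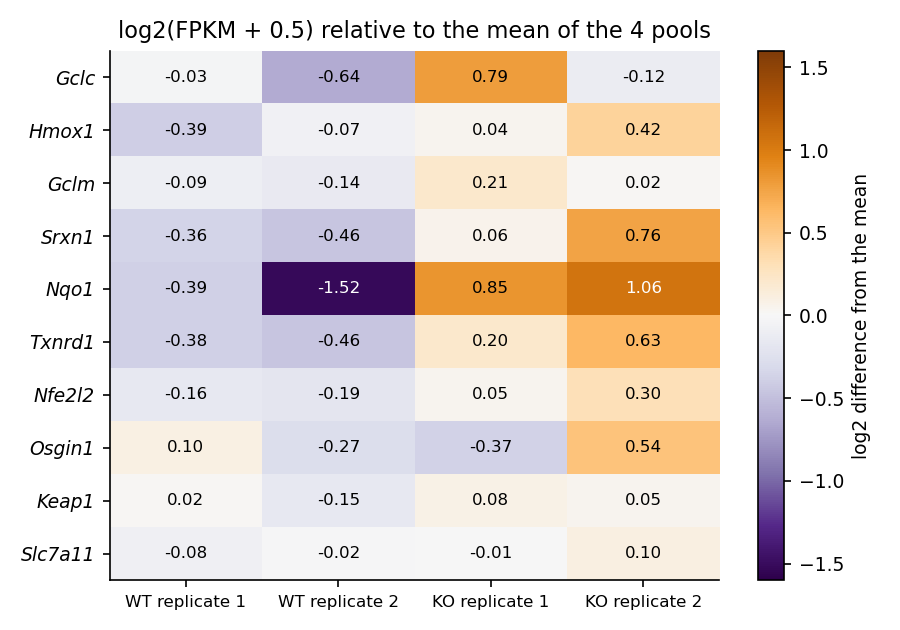
log2(FPKM + 0.5) of each of the 10 genes in each pool, less that gene's mean over the 4 pools (colour and number). The WT columns are mostly below 0 and the KO columns mostly above, while Gclc is highest in KO replicate 1 and Srxn1, Txnrd1 and Osgin1 are highest in KO replicate 2.

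The rest of the pathway was described with 45 further genes, of which 43 were tested. This list was chosen with earlier results of these data known. It holds Cbr1 and Cbr3, which the study reported as highly upregulated in KO from the same sequencing. The shares below are therefore a description and not a test. Of the 43 genes, 34 had a positive and 9 a negative log2 fold change, with a median of 0.20. In 24 (55.8%) each KO pool was above each WT pool, against 19.7% of all genes. In the other direction, 1 gene, Btrc, had each KO pool below each WT pool, against 18.1% of all genes. None had an adjusted p-value under 0.05 (limma, Benjamini-Hochberg), and 11 were higher and 0 lower at an unadjusted p under 0.05, against 3.29% and 3.03% of all genes. Leaving out KO replicate 2 brought the 11 to 5.
The 11 partners and repressors of NRF2 were close to 0, with a median of -0.011 and a range from -0.17 to 0.20. Mafg, a small MAF partner, had 27.8 and 27.4 FPKM in WT against 28.8 and 34.9 FPKM in KO pools. Cul3, the scaffold of the KEAP1 ligase, had 24.1 and 23.3 FPKM in WT and 23.5 in both KO pools. Btrc, an adaptor of another ligase for NRF2, had 1.71 and 1.66 FPKM in WT against 1.44 and 1.45 FPKM in KO pools.
The carbonyl and xenobiotic enzymes had a median of 0.52 over 7 tested genes, 5 of them with both KO pools above (19.7% of all genes). Cbr3, a carbonyl reductase, had 17.8 and 8.74 FPKM in WT against 85.7 and 79.4 FPKM in KO pools, and Cbr1 had 196 and 82.0 FPKM in WT against 379 and 362 FPKM in KO pools. Like Nqo1, both were lowest in WT replicate 2. Ephx1, the microsomal epoxide hydrolase, had 33.2 and 34.5 FPKM in WT against 66.8 and 51.0 FPKM in KO pools. Akr1b8 and Ptgr1 overlapped between genotypes, with log2 fold changes of -0.094 and -0.061.
The 6 genes of haem and iron had a median log2 fold change of 0.37, 4 of them with both KO pools above (19.7% of all genes). Fth1 and Ftl1 had log2 fold changes of 0.57 and 0.17, with overlap for Ftl1. Blvrb, a biliverdin reductase, had 9.33 and 7.12 FPKM in WT against 19.1 and 20.5 FPKM in KO pools. Its log2 fold change of 1.23 (limma adjusted p = 0.466) was larger than that of Hmox1. Blvra, the other biliverdin reductase of the list, had 25.7 and 24.3 FPKM in WT against 28.5 and 27.1 FPKM in KO pools. Its log2 fold change was 0.15. The haem transporter Slc48a1 had 80.4 and 67.9 FPKM in WT against 128 and 119 FPKM in KO pools, and the iron exporter Slc40a1 had 10.6 and 12.9 FPKM in WT against 13.2 and 8.59 FPKM in KO pools, with overlap.
The further genes of glutathione synthesis and use, with Slc3a2 and the synthetase Gss counted among them, had a median of 0.56 over 8 tested genes. All 8 were positive, as were 7917 of the 15414 genes tested, and 5 had both KO pools above (19.7% of all genes). Gss and Slc3a2 overlapped, with log2 fold changes of 0.18 and 0.019. Mgst1, a microsomal transferase, had 82.1 and 39.6 FPKM in WT against 146 and 119 FPKM in KO pools. Gstm1 had 459 and 278 FPKM in WT against 628 and 656 FPKM in KO pools, but it has close paralogs whose reads the counting may have split. Gsr, glutathione reductase, had 75.5 and 62.3 FPKM in WT against 87.5 and 121 FPKM in KO pools.
For NADPH supply, 4 of 6 genes had both KO pools above (19.7% of all genes). Taldo1, transaldolase, had 183 and 127 FPKM in WT against 212 and 268 FPKM in KO pools, and G6pdx, which starts the pentose phosphate pathway, had 17.9 and 19.6 FPKM in WT against 22.9 and 28.6 FPKM in KO pools. Me1 and Idh1 overlapped between genotypes, with log2 fold changes of 0.050 and 0.059. The 3 thioredoxin and peroxiredoxin genes had log2 fold changes from 0.16 to 0.44, and the 2 exporters Abcc1 and Abcc4 had 0.15 and 0.34.

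**Figure D5:**
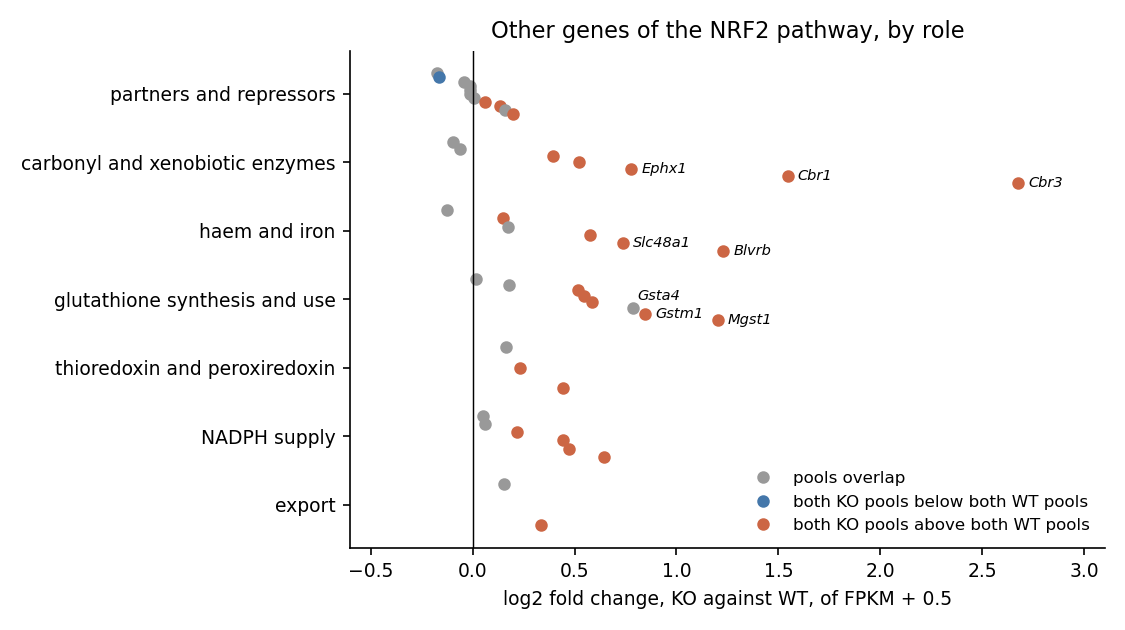
log2 fold change of KO over WT of FPKM + 0.5 for the 43 tested further genes of the NRF2 pathway, 1 point a gene, by role, coloured by whether the pools of the genotypes overlap. Partners and repressors lie near 0, and Cbr3, Cbr1, Blvrb and Mgst1 lie furthest to the right.

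Outside these lists, the 5 genes whose profile over the 4 pools was most like the average of the 8 targets were 1110008P14Rik, Gstm2-ps1, Entpd1, Abcg2 and Usp20, among 7852 genes with a mean of at least 5 FPKM. Likeness was the root mean square difference of centred log2 values, and it was between 0.060 and 0.071 for these genes. Abcg2, an efflux pump, had 51.5 and 38.6 FPKM in WT against 62.6 and 73.6 FPKM in KO pools, and Gstm2-ps1, named as a glutathione transferase pseudogene, had 18.7 and 14.6 FPKM in WT against 26.0 and 30.3 FPKM in KO pools. With 4 pools and this many genes, such a likeness is a description.

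Markers of tubules, injury and blood cells were read in the same pools. In bulk RNA, fewer cells of a type and less RNA per cell cannot be told apart. Of the 8 proximal tubule markers, 5 were lower in each KO pool than in each WT pool and 1, Slc22a6, was higher, against 18.1% and 19.7% of all genes. Their sum was 2312 and 1751 FPKM in WT against 1170 and 1927 FPKM in KO pools, lowest in KO replicate 1, where Gclc was highest and Osgin1 lowest. The 6 markers of the thick limb and distal tubule all overlapped, with a median log2 fold change of 0.0052, as did 5 of the 6 of the collecting duct, with a median of 0.022, against an overlap in 62.2% of all genes. Of the 8 tubular injury markers, 4 had both KO pools above and 1 below, against the same shares of all genes. Of the 4, the keratins Krt8 and Krt18 were only just separated, with 166 and 182 FPKM in WT against 188 and 193 FPKM in KO pools for Krt8, and 46.8 and 54.8 against 54.8 and 60.6 FPKM for Krt18. The wider separations were those of Lcn2 and Krt20. Lcn2 had 133 and 95.2 FPKM in WT against 249 and 273 FPKM in KO pools, Krt20 had 35.6 and 36.8 FPKM in WT against 60.0 and 61.0 FPKM in KO pools, while Vcam1 had 14.6 and 31.1 FPKM in WT against 10.5 and 2.59 FPKM in KO pools. These 4 and Vcam1 thus had opposite orders within 1 list of injury genes. Havcr1 (KIM-1) overlapped, with 210 and 393 FPKM in WT against 249 and 105 FPKM in KO pools. Blood cells were read because haem and leukocytes bear on Hmox1. The 5 red blood cell markers summed to 128 and 126 FPKM in WT against 64.6 and 179 FPKM in KO pools, with overlap. The 6 neutrophil markers summed to 9.90 and 19.3 FPKM in WT against 10.4 and 27.3 FPKM in KO pools. Of these markers, Ly6g and Mpo were at 0 reads in all pools. The 6 T cell markers summed to 0.967 and 2.25 FPKM in WT against 1.11 and 0.687 FPKM in KO pools, with overlap. Among them Cd3d, Cd3g, Cd4 and Cd8a, all too low to be tested, were lower in each KO pool than in each WT pool. The same held for 18.1% of all genes tested. Cd3d had 3 and 6 reads in WT against 0 and 1 reads in KO pools, and Cd3g had 3 and 9 against 0 and 0. Up to 3 reads a library cannot be told from 0. Cd4 had 14 and 33 reads in WT against 9 and 8 reads in KO pools. Cd8a had 19 and 20 reads in WT against 1 and 8 reads in KO pools, while Cd3e and Trac overlapped. The part of these differences in the NRF2 gene values was not tested.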

How the data were processed

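Renal RNA of the 4 pools was purified with poly-T beads and sequenced and analysed by a company for the authors. HISAT2 2.0.5 and GRCm38.p6 (mm10) stand in the submitters' processing notes, and the counting tool and strand setting are not given in the sources used here. The values the authors deposited are FPKM, in 1 table that also lists the length and position of each gene. Multiplied by gene length, 100% of the nonzero values were whole reads (within 0.01 of a read) once divided by the worth of 1 read. These recovered reads served for depth, intervals and limma with voom weights, which called 0 genes. Counting noise alone would give a chi-square near 1 for each gene between the pools of a genotype, and it was 31.5 in WT and 24.5 in KO.

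Here log2(FPKM + 0.5) was fitted with limma 3.58.1 in R 4.3.3 (eBayes with trend, no covariates, two-sided) over 15414 genes with a mean of at least 0.5 FPKM, with Benjamini-Hochberg adjustment over all of them and the study's threshold of 0.05. Because of the pseudocount, differences of weakly expressed genes come out too small. Other computations used Python 3.11.15, pandas 2.3.3 and scipy 1.17.1. Promoter windows are from RefSeq (GRCm38.p6). The alternatives are the pseudocount set to 0.1 or 1, the filter dropped or set to 1 FPKM, quantile normalization, no trend, the replicate block, voom weights, each pool left out and, added after seeing the data, scaling to the reads on genes. With a pool left out, the lone pool is assumed to vary like the others. Members and lists were chosen with earlier results of these data known. The genes named are the 10 members, Apela and Cdh16, in each pathway role some of those with the largest difference or without overlap, the 5 most like genes, and examples of genes that overlapped and of markers chosen after their values were seen. Gene coordinates are the table's and equal those of GENCODE M21 for all 10 members.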

Additional observations from a re-analysis of the deposited data

How the results depend on the processing

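The number of differentially expressed genes was 0 over all genes, over the 9 tested core genes and over the 43 further pathway genes in limma's main setting and under every alternative run at an adjusted p under 0.05. At an unadjusted p under 0.05 they were 974, 3 and 11, and over the other settings with all pools 845 to 1538, 3 to 5 and 8 to 13. With a pool left out these counts were 687 to 1720, 2 to 4 and 5 to 10. The median log2 fold change of the core genes lay between 0.34 and 0.47 with all pools and between 0.33 and 0.62 with each pool left out. That of the further genes lay between 0.13 and 0.20, and between 0.16 and 0.33 with a pool left out, the highest without KO replicate 1. Osgin1 ranged from -0.28 to 0.62 with a pool left out and was the 1 core gene that changed direction, at -0.013 without WT replicate 2 and -0.28 without KO replicate 2 (the cause was not tested). The other 8 tested core genes stayed positive in all settings run. Of these settings, the filter, the trend and the replicate block cannot change the log2 fold change of a gene. Slc7a11 had a fitted value with no filter alone, 0.091. Apela, as a log2 fold change, ranged from -3.64 with voom weights to -2.10 with a pseudocount of 1. When FPKM was rescaled to the reads on genes, the median over all genes was -0.057. The adjusted p of Nqo1 ranged from 0.588 to 0.812, and from 0.298 to 0.977 with a pool left out (limma).

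The pools share replicate numbers only, with a correlation of -0.0017 between the deviations of same-numbered pools over genes. With the replicate block, 0 genes passed an adjusted p and 932 an unadjusted p under 0.05. Of the 932, 5 were core genes and 9 were further pathway genes. Because each replicate number occurs in both genotypes, the block cannot change a log2 fold change. The small number of pools and, for Slc7a11, 17 to 34 reads limit what could be seen.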
